A study of Mus musculus with 2 samples.

Results

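Irf8-high cells are described here: bone marrow progenitors that carried at least 4 unique molecular identifiers (UMIs, each standing for 1 captured RNA molecule) of Irf8 and stayed under set limits for Dntt, Il7r and 4 class II antigen-presentation genes. They were 134 of 7823 cells kept, out of 7884 barcodes. A cell was kept with at least 500 genes and under 10% mitochondrial UMIs, and the rule then asked for Irf8 of at least 4 UMIs, Dntt of at most 1, no Il7r, and fewer than 10 UMIs of Cd74, H2-Aa, H2-Ab1 and H2-Eb1 together. The study sequenced multipotent progenitors from mouse bone marrow with 10x droplets that read the 3′ ends of transcripts, in 1 C57BL/6 Spp1-/- sample and 1 C57BL/6 WT sample. Both were taken 20 h after thioglycollate, an irritant that draws leukocytes into the peritoneum, had been injected there, so neither is untreated. The sorted cells were Lin–, Sca-1+, c-kit+ and CD34+, with a last gate that the labels write as Flt3L+. The labels name the Spp1 genotype but neither the age nor the number of the mice. Spp1 encodes osteopontin, a secreted phosphoprotein.

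The matrix pools 2 libraries, whose cells carry a 1 or a 2 at the end of the barcode, and neither the labels nor the files say which of them is which genotype. The libraries are therefore called library 2 and library 1, and no difference between them is read as a genotype difference. With 1 library per genotype, no test between conditions was possible, and cells of a library are not replicates: values carry 95% intervals that cover counting error only. Library 2 held 18750468 UMIs in 4570 kept cells, with a median of 3836 per cell, and library 1 held 10118499 in 3253, with a median of 2830. The libraries shared 32 barcodes, none of which belonged to an Irf8-high cell. Spp1 had 0 UMIs in the 105 Irf8-high cells of library 2, which at a limit of 3 counts allows a share of up to 2.86% of cells with a UMI, and 1 UMI in the 29 of library 1. These counts were not used to assign a genotype.

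IRF8 is a transcription factor of the interferon regulatory factor family. It directs progenitors towards monocytes and dendritic cells and restrains the neutrophil fate, and mice that lack it accumulate granulocytes. Csf1r is the receptor for macrophage colony-stimulating factor, and Ly86 encodes MD-1, the partner of the Toll-like receptor homologue CD180. Primary granule proteins such as myeloperoxidase, elastase and cathepsin G are made early in the neutrophil and monocyte lineages alike.

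Irf8 (chromosome 8, 120736358 to 120756694, plus strand, GRCm38) chose the cells, so its level is a description. Irf8-high cells of library 2 held a median of 6 Irf8 UMIs and at most 37, and those of library 1 a median of 5 and at most 14. At the threshold itself stood 34 cells of library 2 and 9 of library 1 with exactly 4 UMIs, and 67 and 26 cells that met the other limits lay just outside with 3. At least 10 UMIs were seen in 23 cells of library 2 and 2 of library 1. Before the other limits, 186 kept cells of library 2 and 67 of library 1 had at least 4 Irf8 UMIs. Of these, Dntt set aside 71 and 16 cells, Il7r 26 and 4, and the class II genes 2 and 22, with 18 and 4 cells past more than 1 limit. In library 1 the class II limit removed the most cells, and in library 2 the Dntt limit did.

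The stretch around the start of Irf8 is shown because Irf8 defines the cells. It is RefSeq sequence of GRCm38.p6, plus strand, chr8:120736108-120736407, from 250 bases before the start to 50 after it. Capitals mark matches to TTCNNNGAA, the gamma-activated site bound by STAT dimers, which reads the same on both strands.
Irf8: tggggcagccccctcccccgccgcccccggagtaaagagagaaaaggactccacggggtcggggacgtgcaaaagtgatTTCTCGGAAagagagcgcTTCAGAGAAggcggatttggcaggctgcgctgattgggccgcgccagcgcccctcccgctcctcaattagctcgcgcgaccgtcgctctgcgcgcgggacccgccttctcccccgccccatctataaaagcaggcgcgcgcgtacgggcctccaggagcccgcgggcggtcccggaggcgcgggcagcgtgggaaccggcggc
The matches TTCTCGGAA and TTCAGAGAA begin at positions −171 and −153 from the start and do not overlap. This motif was chosen after the data were seen, and 9.55% of 27025 genes hold at least 1 match in a promoter window and 0.540% hold 2 or more. A match describes the letters and is no evidence of binding.

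Irf8-high cells were 2.30% (1.88 to 2.77) of kept cells in library 2, 105 of 4570, and 0.891% (0.598 to 1.28) in library 1, 29 of 3253. The difference was 1.41 percentage points (0.853 to 1.95). A limit of 4 UMIs is easier to reach in a deeper cell, and the libraries differed in depth. Among cells of under 3000 UMIs the shares were 0.414% in library 2 and 0.447% in library 1, and from 3000 to 5000 UMIs they were 0.742% and 1.0%. From 5000 to 8000 UMIs they were 4.44% (3.27 to 5.88) and 2.80% (1.29 to 5.24), and in deeper cells 19.6% (14.3 to 25.8) and 2.50% (0.0633 to 13.2), the last from 1 of 40 cells. When each cell was thinned to 2000 UMIs and 2 Irf8 UMIs were asked for, 2.42% (1.96 to 2.94) of cells in library 2 and 1.80% (1.31 to 2.41) in library 1 passed. The difference was then 0.615 points (−0.130 to 1.31), and its counting interval included 0. With 3 Irf8 UMIs asked for, the shares were 0.946% and 0.614%, and the difference of 0.332 points (−0.139 to 0.758) included 0 as well. With 1 Irf8 UMI, 10.3% of cells in library 2 and 8.27% in library 1 passed, and the difference of 2.04 points (0.575 to 3.46) left out 0. Whether the interval included 0 thus depended on the limit. Only Irf8 was counted after thinning, and the limits on Dntt, Il7r and class II genes stayed on raw UMIs. Deeper cells exceed such limits more easily, so these shares were not wholly at equal depth. Of kept cells, 2854 of 4570 in library 2 and 2256 of 3253 in library 1 met the other limits. Thinning left out 4 Irf8-high cells of library 2 and 3 of library 1 as too shallow, and of the remaining 101 and 26, the thinned rule kept 59 and 18.

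**Figure D1:**
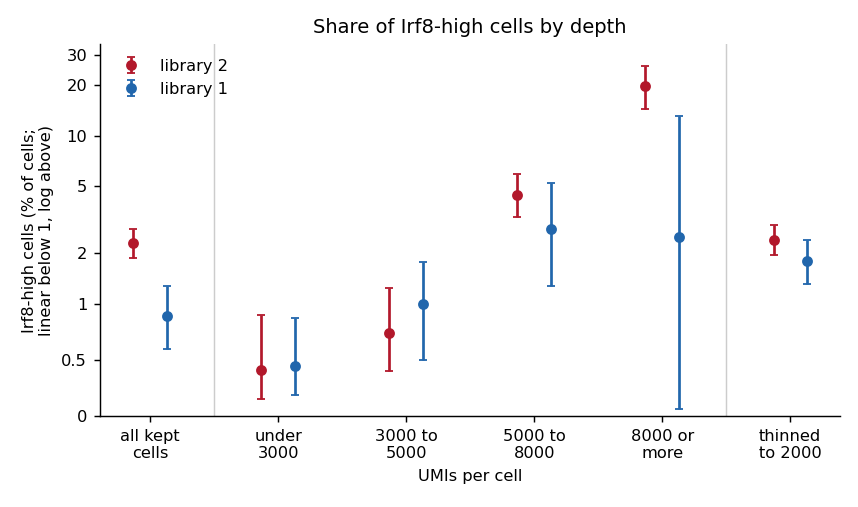
Share of kept cells that were Irf8-high (percent, on an axis that is linear near 0 and logarithmic above) in library 2 and library 1, for all kept cells, for 4 ranges of UMIs per cell and for cells thinned to 2000 UMIs. Bars are exact 95% binomial intervals; the shares lie close together below 5000 UMIs, and at 8000 UMIs or more they are 19.6% and 2.50%.

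The cells were compared first with all kept cells in which Irf8 was not counted, 3157 in library 2 and 2610 in library 1. Levels are CPM, counts per 1000000 UMIs summed over a group. A gene was measured where it had at least 50 UMIs over the compared cells, and it is called higher or lower where its level was at least 2-fold apart in the same direction in both libraries, with the lower side taken as at least 3 UMIs in each library. In Irf8-high cells of library 1, 3 UMIs stand for 23.1 CPM. A gene under 2-fold of that level in the compared cells of library 1 could thus not be called lower. Of 9608 genes, 129 were higher in Irf8-high cells (1.34%) and 57 were lower (0.593%), and the median log2 ratio over all genes was −0.03. These ratios describe the selected cells and are not tests. In counts simulated with counting error alone, 0.416% of unchanged genes were called higher and 0% lower. Which of the calls rest on counting error was not tested. Irf8-high cells were deeper, with a median of 7161 UMIs in library 2 and 4056 in library 1, against 3513 and 2688 in the Irf8 = 0 cells. Within cells of 3000 to 8000 UMIs, 85 of the 129 higher genes and 29 of the 57 lower genes kept the call.

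Ly86 stood highest among the genes with at least 200 UMIs (chromosome 13, 37345208 to 37419036, plus strand). It was at 175 CPM in library 2 and 215 CPM in library 1 in Irf8-high cells, against 5.38 and 7.17 CPM in Irf8 = 0 cells, a log2 ratio of 5.0 (4.77 to 5.23). Its UMIs lay in 60 of 105 and 17 of 29 cells. Csf1r (chromosome 18, 61100598 to 61132149, plus strand) was at 32.1 and 53.8 CPM in Irf8-high cells, against 4.02 and 3.13 CPM, a log2 ratio of 3.18 (2.63 to 3.69). It rested on 24 UMIs in 23 cells of library 2 and 7 UMIs in 6 cells of library 1, so most Irf8-high cells showed none. Stem-like cells, with Hlf and at least 1 of Mecom, Procr and Mllt3, were taken as cells that should lack both genes, although free RNA itself was not measured. After thinning to 2000 UMIs, Ly86 was seen in 30.7% of Irf8-high cells of library 2 and 42.3% of those of library 1, against 0 of 139 and 1 of 52 stem-like cells. Csf1r was seen in 7.92% and 15.4% of Irf8-high cells, against 1 of 139 and 0 of 52 stem-like cells. Median depths before thinning were 7161 and 4056 UMIs in Irf8-high cells, against 3755 and 3263 in stem-like cells. The counting intervals of the 2 kinds of cell did not overlap for Ly86 in either library, whereas for Csf1r they overlapped in both.

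Genes of monocytes and macrophages were mostly higher. Of 19 measured, 11 were higher in both libraries and 1 was lower, with a median log2 ratio of 2.72. Ms4a6c, a membrane protein of monocytes, was at 302 CPM in library 2 and 415 CPM in library 1 in Irf8-high cells, against 43.8 and 49.5 CPM in Irf8 = 0 cells. Clec12a, an inhibitory C-type lectin of myeloid cells, was at 175 and 161 CPM, against 26.4 and 25 CPM. Tyrobp and Fcer1g, adaptors of activating immune receptors, had log2 ratios of 1.54 and 2.11. Mpeg1, the pore-forming perforin-2 of macrophages, was at 82.9 and 38.4 CPM, against 11 and 10.0 CPM, and Slpi, a secreted inhibitor of serine proteases, had a log2 ratio of 3.36 (3.07 to 3.63). Tifab, an inhibitor of TRAF6 signalling, was at 52.1 and 30.7 CPM, against 2.65 and 4.30 CPM. Ly6c2, which encodes the Ly-6C antigen of inflammatory monocytes, was high in few cells: its 92.2 and 154 CPM, against 7.01 and 6.26 CPM, came from 18 and 5 Irf8-high cells. Of the 50-base stretches in the last 300 bases of Ly6c2 transcripts, 29.9% also occur in other genes, so its reads may be shared. Lyz2, the lysozyme of mature monocytes and granulocytes, was the lower member, at 72.2 and 53.8 CPM against 159 and 145 CPM, and it lost this call in cells of 3000 to 8000 UMIs. Ccr2, the receptor that lets monocytes leave the marrow, was at 29.4 CPM from 22 UMIs in library 2 and had 0 UMIs in library 1.

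**Figure D2:**
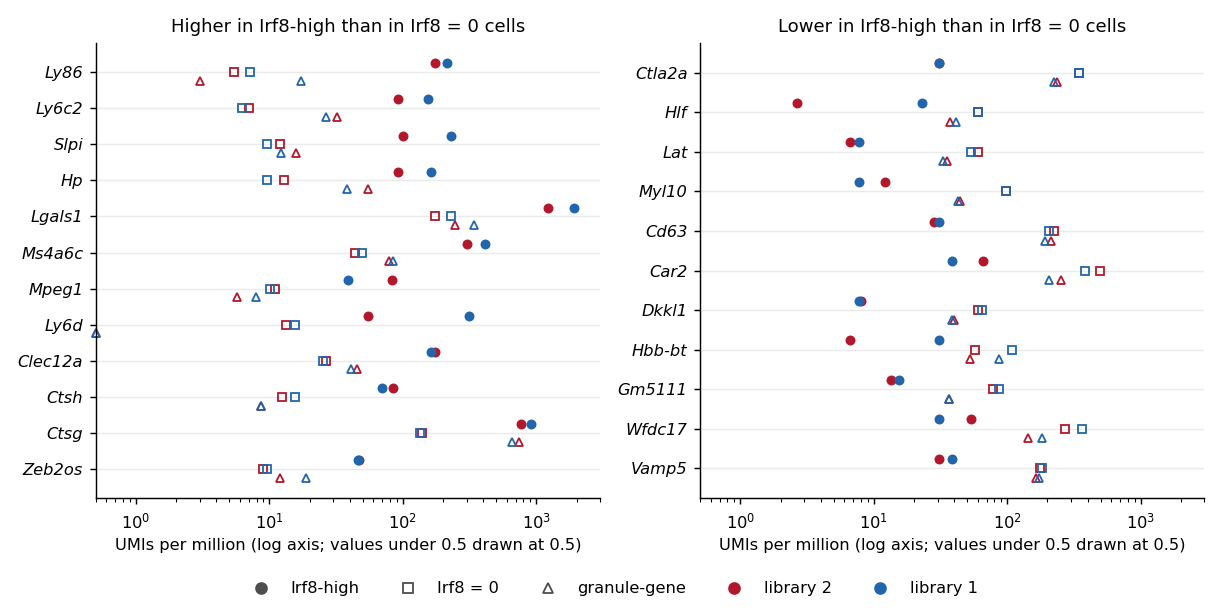
Levels (CPM of summed UMIs, log axis, with values under 0.5 drawn at 0.5) of the 12 genes highest and 11 of the 12 lowest in Irf8-high over Irf8 = 0 cells, in Irf8-high, Irf8 = 0 and granule-gene cells of each library. Ly86 is at 175 and 215 CPM in Irf8-high cells and under 20 CPM in both other groups, whereas Ctla2a is at 30.7 CPM in Irf8-high cells of both libraries and above 200 CPM elsewhere.

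Dendritic genes gave a mixed picture. Of 15 measured, 4 were higher and none lower, with a median log2 ratio of 0.49. Plac8, a cysteine-rich protein abundant in plasmacytoid dendritic cells and in myeloid progenitors, was at 5737 CPM in library 2 and 6156 CPM in library 1 in Irf8-high cells, against 2333 and 2338 CPM. It was counted nearly everywhere: after thinning, a UMI was found in 100% of Irf8-high cells of both libraries, against 96.6% and 95.7% of Irf8 = 0 cells. Pld4, a lysosomal nuclease, was at 25.4 and 92.2 CPM, against 7.52 and 10.0 CPM. Kmo, an enzyme of tryptophan breakdown, rested on 16 UMIs in 10 cells, and Cd7 on 23 UMIs in 7 cells, with 47.8% of them in 1 cell. Bst2 and Cst3, both abundant in dendritic cells, had log2 ratios of 0.74 and 0.70 and did not reach 2-fold. Batf3, Zbtb46 and Xcr1, which mark conventional dendritic cells, and Cd209a, which marks monocyte-derived ones, had 0 UMIs in the 134 cells. The class II limit of the rule had set aside 2 cells of library 2 and 22 of library 1 beforehand. Its part in the low counts of dendritic genes was not tested. Siglech, a lectin of plasmacytoid dendritic cells, had 9 UMIs in 5 cells and was under the minimum. Some monocyte genes were as rare: Cd14 had 1 UMI in the 134 cells, Fcgr3 had 2, and Lgals3 and Klf4 had 3 each. F13a1 and Cybb, monocyte genes also under the minimum, had 17 and 9 UMIs in library 2, and 4 and 3 in library 1. The working name names a monocyte and dendritic leaning. Since some genes of each kind of cell were higher and others were at or near 0, the cells are called Irf8-high after their rule.

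Granule genes were mixed. Of 16 genes of granules and early granulocytes, 7 were higher, 1 was lower and 8 were neither, with a median log2 ratio of 0.72. With Irf8 of at least 6 UMIs the median was −0.0938. Ctsg, cathepsin G, was at 767 CPM in library 2 and 915 CPM in library 1 in Irf8-high cells, against 140 and 133 CPM in Irf8 = 0 cells, a log2 ratio of 2.51 (2.40 to 2.61). Mpo, myeloperoxidase, was at 335 and 538 CPM, against 108 and 143 CPM, and Hp, haptoglobin, at 92.2 and 161 CPM, against 12.9 and 9.51 CPM. Ms4a3, a gene of granulocyte and monocyte progenitors, was at 88.2 and 115 CPM, against 22.9 and 20.5 CPM, in 17 Irf8-high cells. Ctsg and Hp kept the call under every alternative setting run, whereas Mpo and Ms4a3 lost it with Irf8 of at least 6 UMIs. Elane, neutrophil elastase, missed 2-fold in library 1, and 46.3% of its UMIs lay in 1 cell. Nkg7, a granule membrane protein, was the lower member, at 128 and 138 CPM against 330 and 310 CPM. Late neutrophil genes were near 0: the 8 together had 7 UMIs in library 2 and 1 in library 1, that is 9.35 and 7.69 CPM, against 50.8 and 24.1 CPM in Irf8 = 0 cells, and S100a8 had none. Markers of T, B, NK, mast and other mature cells summed to 14.7 and 23.1 CPM, against 16.9 and 16.9 CPM.

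Few regulators and receptors were called higher or lower, but over all genes too only 1.34% were called higher and 0.593% lower. None of 14 other myeloid transcription factors was higher or lower, with a median log2 ratio of 0.18. Those with low levels in Irf8 = 0 cells of library 1, such as Spi1, could not have been called lower. Spi1, which encodes PU.1, was at 24.1 and 15.4 CPM in Irf8-high cells, against 21.3 and 17.3 CPM, and Cebpa, a factor of granulocyte and monocyte progenitors, had 10 UMIs in library 2 and 0 in library 1. Zeb2, a factor needed for monocyte and dendritic development, was at 111 and 76.9 CPM, against 47.9 and 46.0 CPM, and missed 2-fold in library 1. Zeb2os, annotated as its antisense gene, was at 46.8 and 46.1 CPM, against 8.89 and 9.51 CPM. No source used here states whether counting used strand, so its reads and those of overlapping Zeb2 transcripts cannot be told apart. Among the other 8 members of the Irf family and its binding partners, Irf2 was lower, at 30.7 and 15.4 CPM against 61.7 and 51.1 CPM, and it lost the call under 9 of 13 alternative settings. Of 16 growth factor and cytokine receptors, Csf1r alone was called. Flt3, the receptor of the sort, was at 114 and 84.5 CPM, against 141 and 120 CPM. Csf3r, the receptor for granulocyte colony-stimulating factor, had 22 UMIs in library 2 and 0 in library 1.

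Among lysosomal genes, Ctsh and Ctsz, both cysteine cathepsins, were higher, and Cd63, a tetraspanin of lysosomes and granules, was lower. They were 3 of 16, and the list had a median log2 ratio of 0.23. Ctsh was at 84.2 CPM in library 2 and 69.2 CPM in library 1 in Irf8-high cells, against 12.4 and 15.5 CPM. Cd63 was at 28.1 and 30.7 CPM, against 224 and 207 CPM, a log2 ratio of −2.96 (−3.59 to −2.40), and 35.1% of its 3′ stretches occur in other genes. Unc93b1, the chaperone that brings nucleic-acid-sensing Toll-like receptors to endosomes, was the 1 higher member of 11 Toll-like receptors and adaptors, at 162 and 185 CPM against 74.1 and 70.5 CPM. None of 17 interferon-stimulated genes was called, beside 1.34% of all genes called higher and 0.593% lower, and their median was −0.69. None of 5 class II pathway genes outside the rule was called either, in cells whose class II UMIs the rule itself limits. Lgals1, the lectin galectin-1, was in no list and stood among the highest genes, at 1224 and 1898 CPM, against 173 and 228 CPM.

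Of 15 measured genes of stem cells, 3 were lower, none was higher and 12 were neither. The median log2 ratio was −2.20, against −0.03 over all genes, and 8 of the 15 had under 5 UMIs in the Irf8-high cells. Ifitm1 and Ifitm3, interferon-induced membrane proteins, had many UMIs and log2 ratios of −0.51 and 0.01. Hlf, a transcription factor of stem cells, had 2 UMIs in library 2 and 3 in library 1, that is 2.67 and 23.1 CPM, against 60.2 and 60.7 CPM in Irf8 = 0 cells. It lost the call in cells of 3000 to 8000 UMIs. Meis1, a homeobox factor that maintains stem cells, was at 21.4 and 7.69 CPM, against 75.1 and 78.5 CPM. Ctla2a, a protease inhibitor with the lowest ratio among called genes of at least 200 UMIs, was at 30.7 CPM in both libraries, against 346 and 342 CPM, a log2 ratio of −3.49 (−4.09 to −2.95). Of 6 genes of megakaryocyte and erythroid priming, Car2, carbonic anhydrase 2, was at 65.5 and 38.4 CPM, against 492 and 379 CPM. Hbb-bt, a beta globin, was lower too, and Tfrc, the transferrin receptor, was higher, with a log2 ratio of 1.85 (1.33 to 2.33). Wfdc17 and Vamp5 were lower and kept the call under every alternative run, with log2 ratios of −2.52 and −2.47. Lat, an adaptor of T-cell receptor signalling, Myl10, Dkkl1 and Gm5111 had log2 ratios between −3.11 and −2.53 and each lost the call under at least 1 alternative.

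None of the 5 genes listed as sort markers was called higher or lower. They were Kit, Cd34, Ly6a, Flt3 and Cd48, and Cd48 is not among the gates given above. Cd48 was at 230 CPM in library 2 and 269 CPM in library 1 in Irf8-high cells, against 203 and 180 CPM in Irf8 = 0 cells. Kit, the receptor for stem cell factor, was at 16 CPM in library 2 and 15.4 CPM in library 1 in Irf8-high cells, against 41.0 and 37.7 CPM in Irf8 = 0 cells, and rested on 14 UMIs. These levels were over 2-fold lower in both libraries, but the 2 UMIs of library 1 were under the 3 UMIs taken for the call. Cd34 was at 263 and 300 CPM, against 486 and 421 CPM, and Ly6a, which encodes Sca-1, at 261 and 277 CPM, against 313 and 333 CPM. Kit, Cd34 and Ly6a had log2 ratios of −1.35, −0.83 and −0.26. Among 13 immediate early genes, whose transcripts appear within minutes of a signal or of tissue handling, 2 were lower and none higher, and the median was −1.30. Fos was at 16 and 23.1 CPM, against 64.3 and 86.4 CPM. The part that handling had in this was not tested. Ly6d, a surface protein of early lymphoid and plasmacytoid progenitors, was the only higher member of 11 lymphoid genes. It was at 54.8 and 315 CPM against 13.2 and 15.5 CPM, from 8 and 6 cells. A single cell held 43.9% of its UMIs in library 2 and another 39.0% in library 1.

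**Figure D3:**
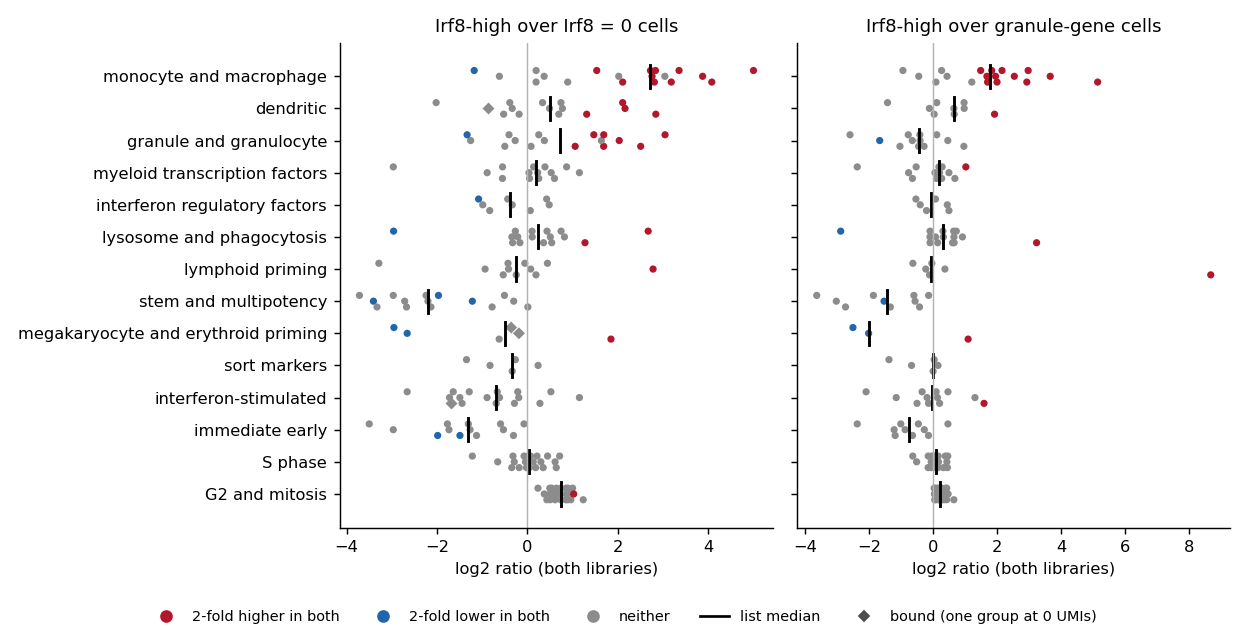
Log2 ratio of Irf8-high over Irf8 = 0 cells and over granule-gene cells, 1 point per measured gene of 14 lists, coloured by whether the gene was at least 2-fold higher, lower or neither in both libraries. Black bars are list medians and diamonds are genes given as a bound; the monocyte list has the highest median in both panels, 2.72 and 1.77.

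Mitotic genes stood higher in sum in Irf8-high than in Irf8 = 0 cells of both libraries. The 24 genes of G2 phase and mitosis summed to 4429 CPM in library 2 and 2728 CPM in library 1 in Irf8-high cells, against 2800 and 1688 CPM in Irf8 = 0 cells and 3810 and 2387 CPM in cells with granule genes and little Irf8. All 24 had ratios to Irf8 = 0 cells above the all-gene median, with a median log2 ratio of 0.74, but only Kif20a, a mitotic kinesin, was called higher, and it lost the call under 8 of 13 alternatives. In cells thinned to 2000 UMIs, at least 5 such UMIs were found in 75.2% (65.7 to 83.3) of Irf8-high cells of library 2, against 39.0% of Irf8 = 0 cells and 67.8% of cells with granule genes. In library 1 it was 38.5% (20.2 to 59.4), against 25.7% and 40.2%. The rule favours deep cells, so the same share was taken in a range of depth. Among cells of 3000 to 8000 UMIs the shares were 66.7% (53.3 to 78.3) and 40.0% (19.1 to 63.9) of Irf8-high cells, against 48.0% and 36.3% of Irf8 = 0 cells and 65.7% and 41.9% of cells with granule genes. The intervals of Irf8-high cells took in the Irf8 = 0 value in library 1 and the granule-gene value in both libraries. The S phase genes had a median log2 ratio of 0.03 and none of 22 was called. At least 5 S phase UMIs were nevertheless found in 82.2% (73.3 to 89.1) of thinned Irf8-high cells of library 2 and 92.3% (74.9 to 99.1) of library 1, against 71.8% and 68.3% of Irf8 = 0 cells. In the range of 3000 to 8000 UMIs the shares were 83.3% (71.5 to 91.7) and 95% (75.1 to 99.9), against 77.2% and 71.5%. The interval took in the Irf8 = 0 value in library 2. Thinned cells with granule genes had S phase shares of 75.5% and 69.7%. Members chosen by the thinned rule had S phase shares of 75.3% (65.5 to 83.5) and 79.5% (64.7 to 90.2). These intervals took in the 71.8% and 68.3% of Irf8 = 0 cells. Their mitotic shares were 57.7% (47.3 to 67.7) and 40.9% (26.3 to 56.8), which left out the 39.0% and 25.7% of Irf8 = 0 cells.

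The second comparison was with granule-gene cells of low Irf8, 483 in library 2 and 265 in library 1. They met the same limits on Dntt, Il7r and class II genes, with at most 1 Irf8 UMI and at least 10 UMIs of Mpo, Elane, Prtn3 and Ctsg together, and their depth was closer, at medians of 5892 and 5050 UMIs. Of 6641 genes, 40 were higher in Irf8-high cells (0.602%) and 26 lower (0.392%). Monocyte genes again led, with 12 of 18 higher, none lower, and a median log2 ratio of 1.77, against 0.00 over all genes. Ly86 was at 175 CPM in library 2 and 215 CPM in library 1 in Irf8-high cells, against 3.01 and 17.2 CPM in granule-gene cells, and Csf1r was at 32.1 and 53.8 CPM, against 8.04 and 7.18 CPM. Ctss, cathepsin S, which trims the class II invariant chain, was at 150 and 146 CPM, against 46.5 and 45.2 CPM, a log2 ratio of 1.69 (1.43 to 1.93). Against Irf8 = 0 cells Ctss had missed 2-fold, at 80.7 and 78.3 CPM there. Ms4a6c and Clec12a had log2 ratios of 2.0 and 1.96, and Lgals1 one of 2.35. Cox6a2, a subunit of cytochrome c oxidase, was the highest gene with at least 200 UMIs, at 148 and 192 CPM, against 23.8 and 25.8 CPM. Unc93b1 had a log2 ratio of 1.30, and Ifi27l2a, an interferon-inducible gene, one of 1.6. Bcl2, which blocks cell death, Hes6, a transcription factor, and Lat2, a signalling adaptor, had log2 ratios of 1.13, 1.1 and 1.09, and each lost the call under 3 of 14 alternatives.

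Granule genes outside the rule did not set the groups far apart. Of 12, Nkg7 was lower, at 128 and 138 CPM against 418 and 368 CPM, and none was higher, with a median log2 ratio of −0.43. Ms4a3 was at 88.2 and 115 CPM, against 126 and 102 CPM. Among the Irf8-high cells themselves, 72.4% in library 2 and 58.6% in library 1 also held at least 10 UMIs of the 4 granule genes, against 13.5% and 8.93% of the shallower Irf8 = 0 cells, and this limit on raw UMIs favours deep cells. Prtn3 had the most UMIs of these 4 genes in Irf8-high cells, 1764 in library 2 and 395 in library 1, and Ctsg followed with 574 and 119. After thinning, Prtn3 was seen in 89.1% and 88.5% of Irf8-high cells, against 81.0% and 80.9% of Irf8 = 0 cells. Its call as higher than in Irf8 = 0 cells was lost under 9 of 13 alternative settings. S100a8, a calcium-binding protein of mature neutrophils, had 0 UMIs in the Irf8-high cells, against 131 and 51.0 CPM. Its log2 ratio was at most −5.13 with 3 counts over the group as the floor, and it lost the call when the deepest 5% of cells were left out. Car2, Ctla2a and Cd63 were lower here as well, with log2 ratios of −2.01, −2.93 and −2.88. Adgrg1 and Adgrl4, adhesion receptors found on stem and early progenitor cells, were both at −1.74. Kit was at 16 and 15.4 CPM, against 42.5 and 33.7 CPM. Rnase6, a secreted ribonuclease, was the only higher member of 9 dendritic genes, at 22.7 and 53.8 CPM against 7.70 and 4.31 CPM.

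The Ctss promoter is shown because it was the only one among the genes named as highest in either comparison to hold a motif of the Irf family. The composite site of Ets and Irf factors and the core of the interferon-stimulated response element were searched on both strands, which 3.16% and 3.99% of 27025 genes hold. Promoters were at hand for 7 of the 12 genes named against Irf8 = 0 cells, with no match, and for 6 of the 12 named against granule-gene cells, with 1. The sequence is RefSeq, GRCm38.p6, plus strand, chr3:95526536-95526835, and capitals mark the match, GAAACCGAAA at position −21 from the start.
Ctss: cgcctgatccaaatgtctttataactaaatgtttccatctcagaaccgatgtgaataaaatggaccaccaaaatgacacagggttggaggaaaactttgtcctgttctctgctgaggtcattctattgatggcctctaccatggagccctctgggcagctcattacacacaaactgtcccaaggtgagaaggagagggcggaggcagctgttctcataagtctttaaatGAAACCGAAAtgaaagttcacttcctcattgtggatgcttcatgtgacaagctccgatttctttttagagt
At these background shares and with this few promoters, nothing is read from the count.

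Levels of several genes followed the number of Irf8 UMIs below the threshold as well as above it. For this, cells with the same Dntt, Il7r and class II limits were grouped by Irf8 UMIs. In library 2, Ly86 was at 1.67, 3.65, 18.3 and 46.8 CPM in cells of 0, 1, 2 and 3 Irf8 UMIs, and at 100.5, 192 and 310 CPM in cells of 4 to 5, 6 to 9 and at least 10. In library 1 it was at 4.8, 20.3, 57.4 and 92.6 CPM, then at 148, 314 and 366 CPM, the last from 2 cells. The counting intervals of cells of 3 and of 4 to 5 UMIs overlapped in both libraries, so the threshold marks no clear step in Ly86. Car2 ran the other way, at 558 CPM in cells of library 2 without Irf8, 140 CPM in cells of 3 UMIs and 52.6 CPM in cells of at least 10. Plac8 was at 2081, 4079 and 6709 CPM in the same groups. Ctsg did not follow one direction: in library 2 it was at 178 CPM without Irf8, 941 CPM at 4 to 5 UMIs and 462 CPM at 10 or more. Median depth also grew along the groups of library 2, at 3422 UMIs without Irf8 and 7427 UMIs at 10 or more, and its part in these levels was not tested.

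**Figure D4:**
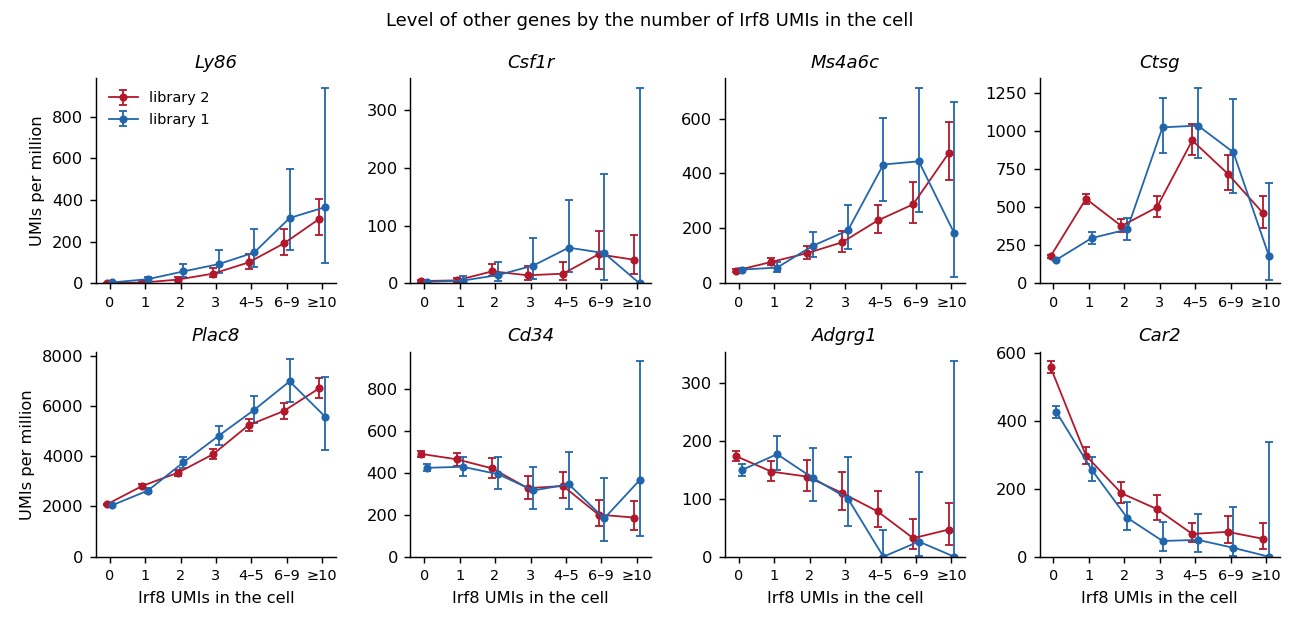
Levels (CPM) of 8 genes by the number of Irf8 UMIs in a cell, in library 2 and library 1, with exact 95% Poisson intervals. All cells meet the same limits on Dntt, Il7r and class II genes. Ly86 climbs over the whole range, Car2 declines, and Ctsg in library 2 is highest at 4 to 5 UMIs, at 941 CPM.

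The Irf8-high cells varied among themselves along the granule genes. Those with at least 10 granule UMIs, 76 in library 2 and 17 in library 1, held less Irf8, at 907 and 977 CPM, than the 29 and 12 cells with fewer, at 1839 and 2158 CPM. They were also deeper, with medians of 8107 and 5253 UMIs against 4703 and 2667, which a limit on raw UMIs favours, so these levels are descriptions. Ms4a3 was at 107 and 154 CPM in the cells with granule UMIs, from 14 and 3 cells, and had 0 UMIs in the others. Its intervals overlapped in library 1. Ly6c2 was at 104 and 185 CPM, against 38.5 and 60.8 CPM from 5 and 2 UMIs, with intervals that overlapped in both libraries. Several genes, chosen after their values were seen, stood higher in the cells with few granule UMIs. Ly6d was at 11.3 and 10.3 CPM in the cells with granule UMIs, against 262 and 1216 CPM in the others, where it was found in 6 of 29 and 5 of 12 cells. Bst2 was at 437 and 494 CPM, against 846 and 1033 CPM, and Tcf4, the factor that specifies plasmacytoid dendritic cells, at 92.2 and 103 CPM, against 177 and 243 CPM, with intervals that overlapped in both libraries. Csf1r was at 27.5 and 30.9 CPM, against 53.9 and 122 CPM, also with overlapping intervals, and Plac8 was closer, at 5685 and 6049 CPM, against 5987 and 6474 CPM. Siglech had 0 and 1 UMIs, against 6 and 2. Ly86 was found on both sides, at 155 and 185 CPM, against 269 and 304 CPM, and so was Ms4a6c, at 298 and 453 CPM, against 323 and 304 CPM. Ly86 and Ctsg were counted together in 14.9% (8.56 to 23.3) of thinned cells of library 2 and 30.8% (14.3 to 51.8) of library 1, beside products of their separate shares of 16.7% and 22.8%. No doublet caller was used, and the part of doublets in cells that hold both kinds of gene was not tested.

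**Figure D5:**
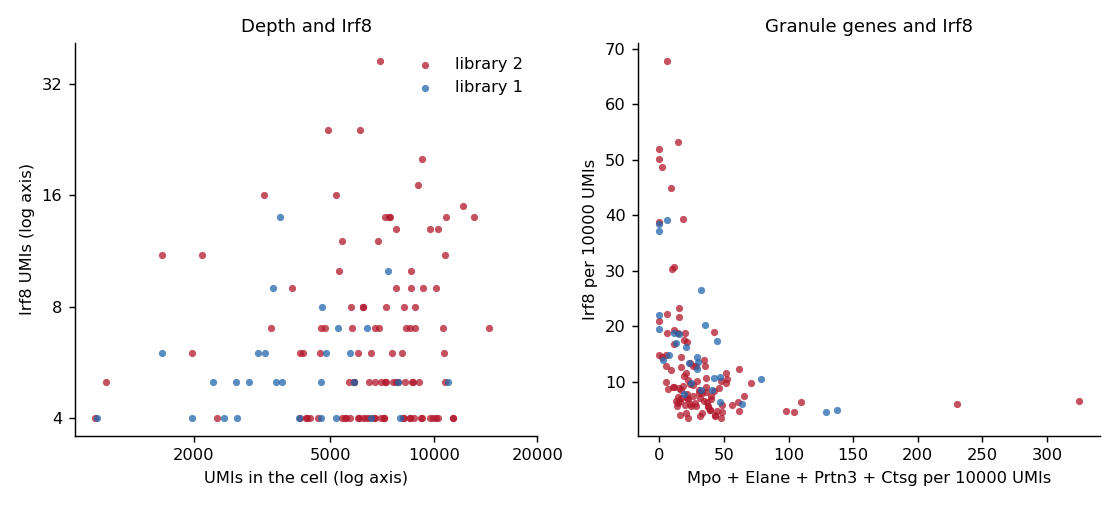
Each point is 1 of the 134 Irf8-high cells, coloured by library. The left panel plots UMIs per cell against Irf8 UMIs, and the right panel plots the 4 granule genes against Irf8, both per 10000 UMIs of the cell; the cells with the most Irf8 for their depth mostly hold few granule UMIs.

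Between the libraries, several of the genes furthest apart in Irf8-high cells were as far apart in Irf8 = 0 cells. Of 2353 genes with at least 50 UMIs in Irf8-high cells, 133 were at least 2-fold higher in library 2 (5.65%) and 22 lower (0.935%). The median log2 ratio of library 2 over library 1 was 0.07. The counting interval left out a ratio of 1 for 78 of the 133 and for all 22. Irf8-high cells held 748278 UMIs in library 2 and 130113 in library 1, so levels in library 1 rested on fewer counts. Among the 694 genes with at least 200 UMIs, the counting interval left out a ratio of 1 for 147, 63 higher and 84 lower. Ppia, cyclophilin A, was at 988 CPM in library 2 and 115 CPM in library 1, a log2 ratio of 3.10 (2.37 to 3.94), and in Irf8 = 0 cells its ratio was 2.80. Ribosomal proteins lay on both sides, with Rpl15 at 2.68, Rps6 at 2.01 and Rpl35 at 1.56, and Rps28 at −1.09, Rps29 at −1.13 and Rps27rt at −1.56. In Irf8 = 0 cells the same genes stood at 2.35, 2.25, 1.41, −1.27, −1.32 and −1.68. Gpx4, an enzyme that reduces lipid peroxides, had a ratio of 1.85, and Gm11808 one of −1.02. Of the last 300 bases, 83.3% of the 50-base stretches of Rps6, 98.4% of Gpx4, 96.0% of Rpl35 and 88.4% of Rps27rt occur in other genes, so these counts may be split between copies. The share was 90.0% for Gm11808 and 48.6% for Rps29, but 21.5% for Ppia, 18.7% for Rps28 and 0% for Rpl15. Cdca8, a subunit of the chromosomal passenger complex of mitosis, had a ratio of 1.54 (0.79 to 2.40), against 0.73 in Irf8 = 0 cells. Tyrobp was at 249 CPM in library 2 and 469 CPM in library 1, a ratio of −0.92 (−1.34 to −0.47), against −0.30 in Irf8 = 0 cells. Csnk2b, a subunit of casein kinase 2, had a ratio of −0.96, against −0.00 in Irf8 = 0 cells. The difference between these pairs of ratios was not tested. With 1 library per genotype, library and genotype cannot be told apart.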

How the data were processed

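RNA of single cells was counted in 2 droplet libraries. The authors deposited raw counts of UMIs per gene and barcode, in whole numbers of 1 to 436 for 27998 genes. Cell Ranger 1.1 and mm10 are named per the submitters' processing notes. The filtering of reads and the calling of cells are not stated in any source used. The members and gene lists were chosen with earlier results of these data known. Cells of a group were summed per library, and levels are CPM. Intervals cover counting error only: exact Poisson for CPM, Clopper-Pearson for shares, the exact conditional interval for ratios and Newcombe's for differences of shares, all at 95%. Both libraries' ratios were pooled by their expected counts, with a floor of 3 counts over a group at 0. For the 2-fold call, the lower side was taken as at least 3 counts in each library. No p-values were computed. For shares at equal depth each cell was thinned to 2000 UMIs, leaving out shallower cells. In the thinned rule only Irf8 was counted after thinning, and the other limits stayed on raw UMIs.

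Named genes were the 12 highest and 12 lowest pooled ratios among genes of at least 200 UMIs past 2-fold in both libraries, the 6 at each end between libraries, members of each list with the most UMIs or the largest ratio, the markers, the sort markers and Spp1; 1 gene so chosen is not reported here. Ccr2, Cebpa, Csf3r, Siglech and the genes by granule level were chosen after their values were seen. No doublet caller was used, and an alternative left out the 5% of cells with the most UMIs. Gene positions are those of GENCODE M21 on GRCm38. Promoters are RefSeq sequences. The steps were tested on simulated data, in which 0.416% of 9367 unchanged genes were called higher and 0% lower. The simulated sums held counting error only and no variation from cell to cell. Genes whose UMIs lie in few cells are therefore not covered by these shares. At a level of 50 CPM or more, 44% of 50 genes set at a fold of 0.5 were called, and 88% of 50 at 0.25. At folds of 3 and 4, 100% were called. Python 3.11.15, numpy 2.4.6, scipy 1.17.1, pandas 2.3.3, statsmodels 0.14.6 and matplotlib 3.10.9 were used, with edgeR 4.0.16 in R 4.3.3 for the TMM factors of 1 alternative.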

Additional observations from a re-analysis of the deposited data

Results flagged for a closer look

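Cd74, the class II invariant chain, stood on opposite sides of the granule-gene cells in the 2 libraries. In library 2 it was at 26.7 CPM in Irf8-high cells, against 45.2 CPM in granule-gene cells, a log2 ratio of −0.76. In library 1 it was at 169 CPM, against 55.3 CPM, a log2 ratio of 1.61. The difference between the libraries was not tested. Cd74 is one of the genes the selection limits, and its counts were 20 UMIs in library 2 and 22 in library 1.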

How the results depend on the processing

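The share of Irf8-high cells in library 2 and in library 1 was 3.76% and 1.69% with Irf8 of at least 3 UMIs, and 1.18% and 0.338% with at least 6. In library 2 it was 1.47% without the deepest 5% of cells. In library 1 it was 1.80% after thinning and 1.41% in cells of 3000 to 8000 UMIs. The 129 genes higher than in Irf8 = 0 cells became 56 with a minimum of 200 UMIs and 51 where the interval had to leave out a ratio of 1. The 57 lower genes became 99 with Irf8 of at least 3 UMIs, 22 with at least 6, 33 without the deepest cells and 30 in cells of 3000 to 8000 UMIs. The 40 genes higher than in granule-gene cells became 69 with Irf8 of at least 6, 13 and 114 with minima of 200 and 10 UMIs, 70 and 24 with granule limits of 5 and 20, and 26 by interval. The 26 lower genes became 16 with Irf8 of at least 6. The 155 genes 2-fold apart between libraries became 92 by the thinned rule, 81 without the deepest cells, 57 in cells of 3000 to 8000 UMIs, and 13 and 564 with minima of 200 and 10. The granule list's median against Irf8 = 0 cells, 0.72, was −0.0938 with Irf8 of at least 6, and that of the megakaryocyte and erythroid list, −0.49, was 0.29 without the deepest cells. The causes were not tested, beyond fewer or more genes or cells entering by construction. Cells chosen by the thinned rule kept 66 of the 129 higher and 27 of the 57 lower calls. No named gene changed direction. All 12 genes named as higher than in Irf8 = 0 cells kept the call under all 13 settings, as did 5 of the 12 lower ones, and against granule-gene cells 5 of 12 higher and 6 of 12 lower did under 14. The interval rule, the shares by range of UMIs, the mitotic shares in cells of 3000 to 8000 UMIs and the gamma-activated site were added after the data were seen. No paired analysis was possible because each genotype has 1 library and no label ties a library to a genotype. Depth limits what can be read from genes with few UMIs in the Irf8-high cells, such as Csf1r, Kit, Siglech and several stem cell factors.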
